A study of Zea mays with 18 samples.

Results

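The star strands of maize miR156 are the less abundant arms of the miR156 hairpins, and their names carry the hairpin's letter and an asterisk. All rows named zma-miR156 with an asterisk were taken from both deposited tables. At sufficient phosphate (SP) these were 11 of 246 rows, which left 10 of 197 distinct entries because miR156f* and miR156g* held the same value in every library. At low phosphate (LP) they were 8 of 207 rows and 7 of 156 distinct entries, namely zma-miR156a*, zma-miR156b*, zma-miR156d*, zma-miR156f* (with zma-miR156g*), zma-miR156i*, zma-miR156k* and zma-miR156l*, written below by the letter alone. The rows zma-miR156e*, zma-miR156h* and zma-miR156j* were analysed at SP only.

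In plants a miR156 precursor folds into a hairpin, which a Dicer-like enzyme cuts into a duplex of the guide strand (miR156) and the star strand. The guide enters an ARGONAUTE protein and represses SPL transcription factor genes, which keeps the shoot juvenile, while miR172 represses AP2-like genes and marks the adult phase. In maize the Corngrass1 mutant overexpresses a tandem pair of miR156 genes and stays juvenile. The star strand is mostly degraded, and because star sequences vary more between loci than the guide does, a star read can often be traced to fewer hairpins than a guide read.

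The libraries hold small RNA of leaf and root from Q319, a maize inbred line raised in nutrient solution, and each sample pooled 15 to 20 plants. The SP plants had 1000 µM KH2PO4 and gave 8 libraries, 2 each from leaf on day 8 (4-leaf stage), leaf on day 0 (3-leaf stage), root on day 8 (4-leaf stage) and root on day 0 (3-leaf stage). The LP plants, of the same line, were moved to 5 µM KH2PO4 and gave 10 libraries, 1 per organ on days 0, 1, 2, 4 and 8, with day 0 taken at the transfer and so still at 1000 µM. The LP plants were at the 3-leaf stage on days 0 to 4 and at the 4-leaf stage on day 8, so on day 8 growth stage and days at LP changed together and cannot be told apart. Both root libraries titled as day 8 carry a second label naming day 0 while their tissue label gives the 4-leaf stage, and the title and tissue label were followed, so each SP root value of day 8 and each root stage change rests on that reading. P-values at SP measure the spread between 2 pools of plants of 1 inbred line, and no LP time point had a repeat. The LP p-values for leaf against root take the days of an organ as its repeats. They measure a spread over days that differed in phosphate supply and growth stage, and leaf and root of a day were not paired.

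The SP libraries summed to between 8528196 and 14285855 counts over the listed miRNAs. Clean reads per LP library, as recovered from the steps of the low values, ranged from 12885000 to 21385000. The miR156 star entries, with d*, f* and g* counted once, took 250 to 393 reads in an SP leaf library and 960 to 1166 in an SP root library. They took 334 to 473 reads in an LP leaf library and 665 to 1508 in an LP root library. Both organ labels were used as given, since the tables list miRNAs and no marker genes. In bulk tissue, fewer cells of a type and less RNA per cell cannot be told apart. The LP root library of day 0 stood apart from the SP root libraries of day 0 in the ratios between star strands, with values given with the LP course below.

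The star rows were listed by hairpin, but d*, f* and g* did not report single hairpins. The d* count exceeded the f* count by between -1 and 8 reads in the SP libraries, at most 4.19% of the d* reads. At LP it exceeded f* by 0 to 15 reads, at most 4.37%. The counts of d* and f* were equal in 1 of 8 SP and 1 of 10 LP libraries. These rows therefore share nearly all of their reads and are treated as 1 group, shown as d*, in the shares. Counts of tested and called entries still include both d* and f*, which are not separate measurements. In the RefSeq annotation of Zm-B73-REFERENCE-NAM-5.0, each of the 11 star letters had a MIR156 gene, and 0 of these 11 genes neighboured another. That annotation held no MIR156 gene of the letter c, although a miR156c guide was listed. Whether b or another hairpin lies beside the c hairpin therefore cannot be told from this count.

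Leaf and root differed in the shares that the star rows took of the miR156 star reads. A share also falls when another strand rises, and d* was abundant in both organs. On day 8 it had 184 and 297 counts in leaf and 182 and 191 in root. In leaf, d* (with f* and g*) made up most of the star reads, and in root at SP, b* did. The share of b* was 2.04% ± 1.08 in leaf on day 8 and 4.95% ± 0.637 in leaf on day 0, against 63.3% in both root libraries of day 8 and 70.2% ± 1.69 in root on day 0 (SD, n = 2 each). The share of d* was 74.6% ± 1.39 in leaf on day 8 and 67.4% ± 0.0765 in leaf on day 0, and 19.1% ± 1.07 in root on day 8 and 12.9% ± 0.856 in root on day 0. The ranges of the leaf and root libraries did not overlap for b* or d*.

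The l* hairpin took a middle share in both organs. Its share was 14.0% and 7.63% in the leaf libraries of day 8 and 14.7% and 20.9% in those of day 0. In root it was 12.8% ± 1.17 on day 8 and 12.4% ± 0.229 on day 0 (SD, n = 2 each), so the leaf and root libraries overlapped. The i* share lay between 3.97% and 8.91% in leaf and between 1.72% and 3.02% in root. The entries k*, a*, e*, h* and j* each stayed at or under 4.58% in every SP library. Shares are descriptions and were not tested.

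**Figure D1:**
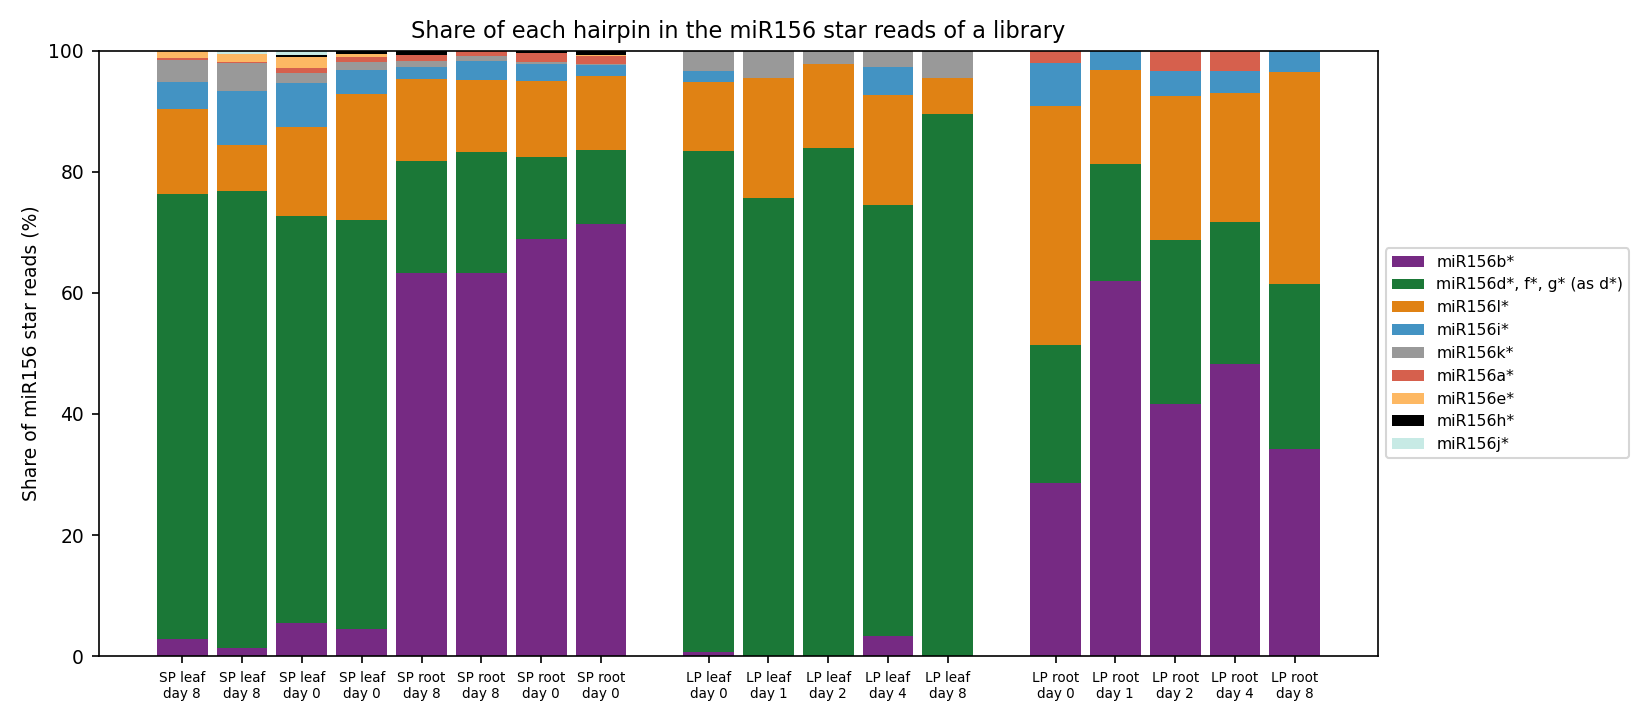
Share of each hairpin in the miR156 star reads of each library (percent, 1 bar per library), with d*, f* and g* entered once as d* and LP blanks entered as 0. Purple b* fills between 1.27% and 5.40% of the SP leaf bars, where green d* prevails, and 63.3% to 71.4% of the SP root bars.

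The zma-miR156b* strand had the widest organ difference of the tested stars. It had 7 and 5 counts in leaf on day 8 and 21 and 17 in leaf on day 0, against 627 and 608 in root on day 8 and 778 and 832 in root on day 0. Every root library lay above every leaf library. Values in CPM are counts scaled to a library total of 1000000 after TMM, edgeR's trimmed-mean scaling between libraries. On this scale day 8 gave 0.594 ± 0.0414 CPM in leaf against 61.3 ± 8.81 CPM in root, and day 0 gave 2.12 ± 0.451 CPM in leaf against 71.6 ± 11.8 CPM in root (SD, n = 2 each). The leaf-over-root log2 change was -6.65 (SE 0.37) on day 8, with an adjusted p of 1.11e-07 by edgeR's quasi-likelihood test. On day 0 it was -5.07 (SE 0.32), with an adjusted p of 2.05e-07.

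The zma-miR156l* strand was also lower in leaf. It had 35 and 30 counts in leaf on day 8 and 57 and 79 in leaf on day 0, against 135 and 115 in root on day 8 and 142 and 143 in root on day 0. All leaf libraries lay below all root libraries. The leaf-over-root log2 change of l* was -1.92 (SE 0.26) on day 8, with an edgeR adjusted p of 4.78e-05. On day 0 it was -0.75 (SE 0.24), with an edgeR adjusted p of 0.0146, and without leaf replicate 1 of day 0 it missed the threshold of 0.05 (edgeR adjusted p = 0.113).

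The zma-miR156a* strand was rare. It had 1 count in each leaf library of day 8 and 3 in each of day 0, against 10 and 8 in root on day 8 and 16 in each root library of day 0. The groups of leaf and root did not overlap. The day 8 leaf-over-root ratio of summed and scaled counts was 0.113, with an exact 95% counting interval of 0.0127 to 0.471. On day 0 it was 0.236, with an interval of 0.0807 to 0.573. These intervals cover counting error only. The a* strand passed the filter on low counts through its root counts alone, so its passing the organ test gives no support of its own.

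The d* group was higher in leaf on day 0. The zma-miR156d* strand had 184 and 297 counts in leaf on day 8 and 262 and 255 in leaf on day 0, against 182 and 191 in root on day 8 and 152 and 143 in root on day 0. The groups did not overlap on day 0, whereas the lower leaf library of day 8, at 16.4 CPM, lay within the root range of 16.0 to 21.2 CPM. The leaf-over-root log2 change of d* was 1.14 (SE 0.33) on day 0, with an edgeR adjusted p of 0.00727, and 0.42 (SE 0.32) on day 8, with an edgeR adjusted p of 0.277. For f*, counted as 180 and 292 in leaf on day 8 and 260 and 255 in leaf on day 0, against 180 and 183 in root on day 8 and 153 and 142 in root on day 0, the values were nearly the same, at 1.13 (edgeR adjusted p = 0.00724) on day 0 and 0.44 (edgeR adjusted p = 0.259) on day 8.

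The call for d* and f* depended on the scaling and on 1 library. With counts scaled to listed reads in place of TMM, the day 0 log2 changes were 0.38 for d* and 0.37 for f* (edgeR adjusted p = 0.175 for both). On day 8 scaling to listed reads gave d* a log2 change of -0.20, against 0.42 with TMM, neither of them called. Without leaf replicate 1 of day 8, the day 8 log2 changes were 0.86 for d* (edgeR adjusted p = 0.00568) and 0.87 for f* (edgeR adjusted p = 0.00474). The TMM factors of leaf libraries lay between 0.734 and 0.937 and those of root libraries between 1.23 and 1.29. Relative to TMM, scaling to listed reads moved the median leaf-over-root log2 change of all entries by -0.59 on day 8 and -0.76 on day 0. The shifts with median-ratio scaling, the size factors of DESeq2, were -0.29 on day 8 and -0.34 on day 0. The strands b* and l* were lower in leaf on both days under all 3 scalings.

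The i* and k* strands did not pass the organ test. The i* strand had 11 and 35 counts in leaf on day 8 and 28 and 15 in leaf on day 0, against 19 and 29 in root on day 8 and 31 and 20 in root on day 0. Its leaf and root libraries overlapped, with log2 changes of -0.01 (SE 0.59) on day 8 and 0.10 (SE 0.59) on day 0. The k* strand had 9 and 18 counts in leaf on day 8 and 7 and 5 in leaf on day 0, against 10 and 8 in root on day 8 and 4 and 2 in root on day 0. Its log2 changes were 0.63 on day 8 and 1.30 on day 0 (edgeR adjusted p of 0.288 and 0.108). Without leaf replicate 1 of day 8 the day 8 change of k* was 1.19 (edgeR adjusted p = 0.0397).

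**Figure D2:**
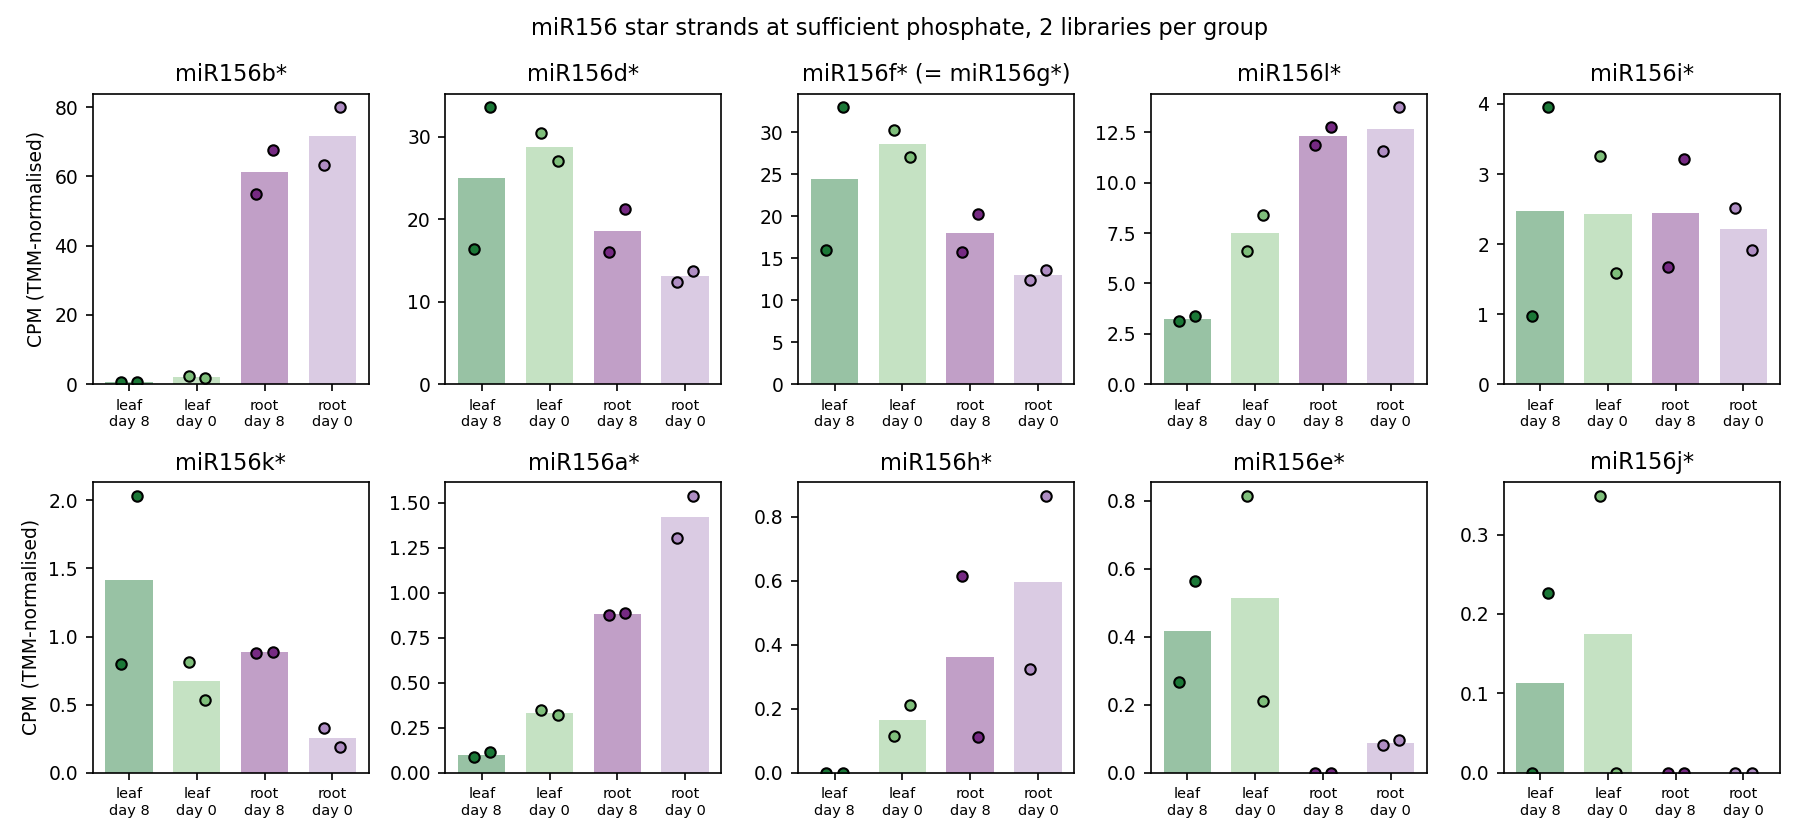
TMM-normalised CPM of each distinct miR156 star entry at SP, with 1 panel per hairpin, bars for the mean of 2 libraries and points for the libraries. The b*, l* and a* panels are higher in root, with b* at 0.594 CPM in leaf and 61.3 CPM in root on day 8, and the d* and f* points of leaf on day 8 lie far apart.

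Of the 7 star entries that passed the filter of 10 counts in at least 2 libraries, 2 passed as higher and 3 as lower in leaf on day 0, where edgeR called 79.9% of all 149 entries tested, 43.6% higher and 36.2% lower. The 2 higher were d* and f*, which share nearly all of their reads. The a* strand was 1 of the 3 lower on each day. Over all entries, 65 were higher and 54 lower on day 0, against 41 higher and 69 lower with scaling to listed reads. On day 8, 0 of 7 were higher and 3 of 7 lower, where 75.8% of all entries were called, 38.9% higher and 36.9% lower. Organ calls were the rule among all miRNAs, so the count for the stars is no result about them. Of 45 star entries of other families, 17 passed as higher in leaf and 22 as lower on day 8, and 17 and 21 on day 0. The median leaf-over-root log2 change was -0.01 for the miR156 stars and 0.26 for all entries on day 8, and 0.10 for the miR156 stars and 0.36 for all entries on day 0.

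The entries e*, h* and j* did not pass the filter. The e* strand had 3 and 5 counts in leaf on day 8 and 7 and 2 in leaf on day 0, against 0 in both root libraries of day 8 and 1 in each root library of day 0. The h* strand had 0 in both leaf libraries of day 8 and 1 and 2 in leaf on day 0, against 7 and 1 in root on day 8 and 4 and 9 in root on day 0. The j* strand had 0 and 2 counts in leaf on day 8 and 3 and 0 in leaf on day 0, and 0 counts in all root libraries. A count of 0 in a library allows up to 3 reads. Without the filter, 5 star entries were called on day 8 in leaf over root. The day 8 e* ratio of root over leaf had an upper 95% counting bound of 0.577. In the other direction, the day 8 h* ratio of leaf over root had an upper bound of 0.595, with 7 of its 8 root counts in 1 library. On day 0 the h* interval of leaf over root was 0.0531 to 1.06, which includes 1. The day 0 e* interval of root over leaf was 0.0185 to 0.852. These bounds cover counting error only.

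In leaf at SP, b* and l* were lower at the 4-leaf than at the 3-leaf stage. The b* log2 change of leaf on day 8 over leaf on day 0 was -1.80 (SE 0.46), with an edgeR adjusted p of 0.0275, and 12 against 38 summed counts gave a scaled ratio of 0.283 (exact 95% counting interval 0.135 to 0.554). The l* log2 change was -1.21 (SE 0.27), with an edgeR adjusted p of 0.0183, and 65 against 136 summed counts gave 0.429 (0.314 to 0.580). The leaf libraries of day 8 and day 0 did not overlap for either strand. Thus 2 of 7 stars were called lower and 0 higher, where 10.1% of all entries were called, 0 of them higher and 15 lower. Of the 15 lower, 8 were miR156 guides, which share reads as given below, and 5 were stars of other families. The 10.1% therefore counts the 2 stars themselves and guides of the same family. With scaling to listed reads, 7 of all entries were called higher and 6 lower.

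Both calls were lost when single leaf libraries were left out, while the log2 changes kept their direction. Leaving out any of the 4 leaf libraries ended the b* call, with log2 changes of -1.88 and -1.74 without replicate 1 or 2 of day 8 and -1.58 and -2.01 without replicate 1 or 2 of day 0. The edgeR adjusted p-values were 0.0774 and 0.0895 without replicate 1 or 2 of day 8 and 0.201 and 0.0737 without replicate 1 or 2 of day 0. The l* call was lost without leaf replicate 2 of day 0 (log2 -1.03, edgeR adjusted p = 0.174).

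The other leaf stars did not pass this test. The d* log2 change was -0.21 (SE 0.32) and that of f* was -0.23 (SE 0.32), with replicate 1 of day 8 below and replicate 2 above both libraries of day 0 in CPM. The i* log2 change was -0.02 (SE 0.60) and the k* log2 change 1.02 (SE 0.53, edgeR adjusted p = 0.444). The k* strand passed the filter on low counts through libraries of day 8 alone, so its stage test gives no support of its own. The a* log2 change was -1.63 (SE 0.77, edgeR adjusted p = 0.498) on 2 against 6 summed counts.

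In root, 0 of 7 stars passed the test of day 8 over day 0, where edgeR called 0% of all entries and 22 entries had an unadjusted p under 0.05. Of the stars, k* alone had an unadjusted p under 0.05, with a log2 change of 1.70 (SE 0.65, edgeR unadjusted p = 0.0243, adjusted p = 0.226). Only day 8 libraries of k* reached the filter's minimum count, so k* passed the filter through that stage. Its test gives no support for a stage change. The b* log2 change in root was -0.23 (SE 0.24), and that of l* was -0.04 (SE 0.23). For d* it was 0.51 (SE 0.33). DESeq2 called 8 of all entries in root.

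An interaction term tested whether the stage change of leaf differed from that of root. It called 0 of 7 stars, where 6.04% of all entries were called. Of all entries 1 was higher and 8 lower, against 2 and 2 with median-ratio scaling and 3 and 2 with scaling to listed reads. Of the 8 lower, 6 were miR156 guides. The values were -1.58 (SE 0.52, edgeR adjusted p = 0.0926) for b*, -1.17 (SE 0.36, edgeR adjusted p = 0.0755) for l* and -0.72 (SE 0.46, edgeR adjusted p = 0.543) for d*. Without leaf replicate 2 of day 8, l* (edgeR adjusted p = 0.0446), d* and f* (edgeR adjusted p = 0.0285 for both) passed. With rows of identical values all kept, l* passed as well (edgeR adjusted p = 0.0349).

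The star strands were set beside the guides of the same letter, whose rows also share reads. The guides a, c, e, f, g, h, i and l differed from a by at most 0.899% in any library of either table, and the guides b and d from each other by at most 0.0421% at SP and 0.0676% at LP. The b guide exceeded the a guide by 3.68% to 37.1% at SP and by 2.71% to 73.6% at LP. Guide counts thus stand for several hairpins together. Numbers of called guide or phase-change entries include such near copies, which are not separate measurements. Per 100000 guide reads, the level of b* on day 8 was 0.860 ± 0.0968 in leaf against 109 ± 16.1 in root, and on day 0 it was 2.46 ± 0.594 in leaf against 134 ± 29.3 in root (SD, n = 2 each). For d* the same measure was 24.4 and 47.0 in leaf on day 8 and 35.9 and 30.5 in leaf on day 0, against 28.3 and 37.7 in root on day 8 and 22.1 and 26.6 in root on day 0. For l* it was 6.26 ± 0.423 in leaf against 23.6 ± 1.48 in root on day 8, and 10.5 ± 1.49 in leaf against 24.7 ± 4.40 in root on day 0. The leaf and root libraries did not overlap for b* or l* and overlapped for d* on day 8. At LP, d* per 100000 guide reads was 25.5, 34, 31.6, 22.6 and 34.3 in leaf and 11, 12.7, 14.2, 9.88 and 15.9 in root on days 0, 1, 2, 4 and 8, with all leaf values above all root values. For b* in LP root it was 13.7, 40.5, 21.7, 20.4 and 20.0 on the same days, all below the SP root values.

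The direction of most guides between organs depended on the scaling, which that of b* and l* did not. With TMM, 4 of 10 guide entries passed as higher in leaf at the later stage and 10 of 10 at the earlier one, and 0 as lower. With scaling to listed reads, day 8 gave 1 higher and 6 lower guides, and day 0 gave 1 higher and 0 lower. The guide miR156a had a leaf-over-root log2 change of -0.01 on day 8 and 0.47 on day 0 with TMM (edgeR adjusted p of 0.962 and 0.000427), and -0.58 and -0.29 with scaling to listed reads. The divergent guide miR156j was higher in leaf under all 3 scalings, with TMM log2 changes of 5.62 on day 8 and 6.08 on day 0 (edgeR adjusted p of 4.46e-08 and 2.43e-08), while its star had 5 counts over all 8 SP libraries.

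Between the stages, 8 of 10 guides were lower in leaf on day 8 with TMM, with a log2 change of -0.46 for miR156a (edgeR adjusted p = 0.00575). With median-ratio scaling 0 of 10 were lower, and miR156a had a log2 change of -0.41 (edgeR adjusted p = 0.309). With scaling to listed reads 0 were lower and 1 was higher. The log2 changes of b* (-1.80) and l* (-1.21) in leaf lay below those of the guides miR156b (-0.33) and miR156l (-0.46). The b* and l* calls in leaf held under both other scalings, with edgeR adjusted p-values for b* of 0.0319 (median-ratio) and 0.0469 (listed reads).

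**Figure D3:**
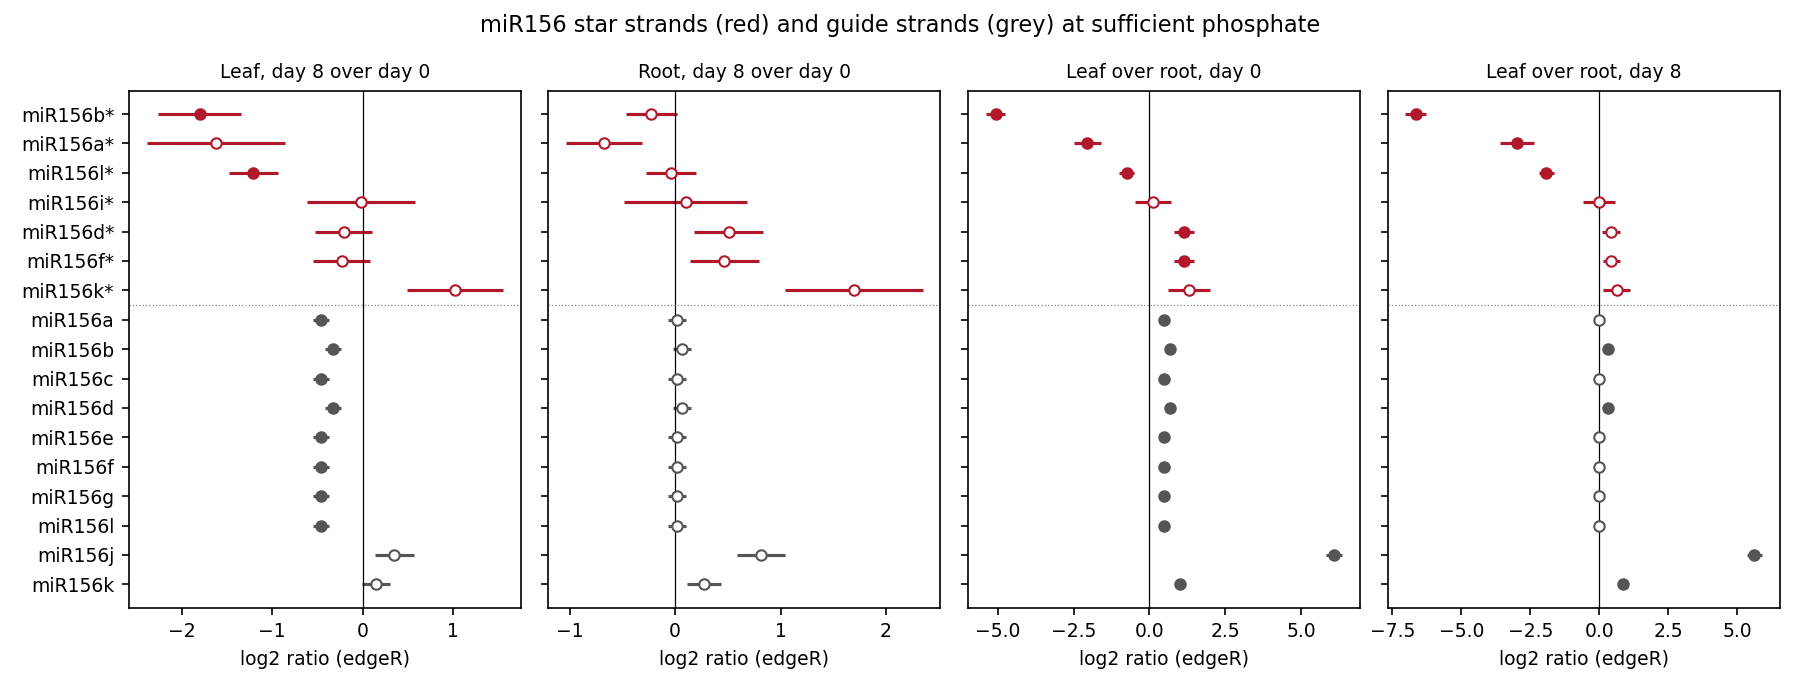
Log2 changes by edgeR with SE for the 7 tested miR156 star entries (red) and the 10 guide entries (grey) in 4 SP comparisons, with filled points for an adjusted p under 0.05 and open points for the rest. In leaf over root, b* lies at -5.07 on day 0 and -6.65 on day 8, while the guide miR156a lies at 0.47 and -0.01.

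The other phase-change entries were miR156 guides, miR529 and the miR172 family with its stars, of which 15 were tested. Of these, 10 were miR156 guide entries, most of which share reads. For leaf over root with TMM, day 8 gave 6 higher and 2 lower entries, and day 0 gave 12 higher and 2 lower. With scaling to listed reads, day 8 gave 3 higher and 8 lower, and day 0 gave 2 higher and 3 lower. The miR529 guide, which like miR156 targets SPL genes, was higher in leaf under all 3 scalings, with TMM log2 changes of 2.09 on day 8 and 2.25 on day 0 (edgeR adjusted p of 0.000167 and 4.61e-05). The miR172a guide was higher in leaf by 2.13 (log2) on day 8 and by 0.82 on day 0 with TMM (edgeR adjusted p of 2.81e-05 and 0.0135), but not on day 0 with scaling to listed reads (log2 0.06, edgeR adjusted p = 0.776).

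The star miR172b* was lower in leaf, with leaf-over-root log2 changes of -3.73 on day 8 and -5.97 on day 0 (edgeR adjusted p of 0.000235 and 5.51e-06). In leaf over the stages, 8 of the 15 entries were lower and 0 higher with TMM. With scaling to listed reads 0 were lower and 2 higher, and with median-ratio scaling 0 passed in either direction. In root over the stages 0 of 15 passed with TMM, against 1 higher and 3 lower with either other scaling.

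At LP, d* again made up most of the leaf star reads, and b*, l* and d* most of the root star reads. The LP values are reads per 1000000 clean reads (RPM), and a blank stands for a comparison in which both libraries were under 1 RPM. The share of d* in leaf was 82.7%, 75.7%, 83.9%, 71.1% and 89.6% on days 0, 1, 2, 4 and 8. The share of b* in root was 28.6%, 61.9%, 41.6%, 48.2% and 34.2% on the same days. The d* share in leaf lay above 70% in every LP library, and the b* share in root was lowest on day 0.

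The b* strand in LP root had 11.7, 43.7, 20.8, 21.1 and 18.6 RPM on days 0, 1, 2, 4 and 8. In LP leaf it had 0.222 RPM (3 reads) on day 0, 1.01 RPM on day 4 and blanks on days 1, 2 and 8. Every root value lay above every listed leaf value, and the highest root value was that of day 1. The limma log2 difference of leaf minus root over the 5 days was -3.86 (SE 0.31), with blanks entered as 0.5 RPM and log2 taken of RPM + 1. Since b* reached 1 RPM in 1 leaf library and in all 5 root libraries, it passed the filter of 1 RPM in 2 libraries through root, and no p is given for it.

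The d* strand in LP leaf had 27.7, 19.4, 24.9, 21.2 and 19.0 RPM, and in LP root 9.33, 13.7, 13.6, 10.2 and 14.8 RPM, on days 0, 1, 2, 4 and 8. All leaf values lay above all root values. The limma log2 difference of leaf minus root was 0.82 (SE 0.18, adjusted p = 0.00196) for d*. For f*, with 27.2, 18.7, 24.1, 20.7 and 18.1 RPM in leaf and 9.14, 13.4, 13.4, 10.2 and 14.2 RPM in root, it was 0.80 (SE 0.18, limma adjusted p = 0.0022).

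The l* strand in LP leaf had 3.85, 5.07, 4.14, 5.43 and 1.27 RPM, and in LP root 16.1, 10.9, 11.9, 9.32 and 19.1 RPM, on days 0, 1, 2, 4 and 8. All leaf values lay below all root values, and leaf was lowest on day 8. Its limma log2 difference of leaf minus root was -1.59 (SE 0.31, adjusted p = 0.00103).

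The rarer LP strands were near the listing limit. The i* strand in leaf had 0.593 RPM on day 0, 1.40 RPM on day 4 and blanks on days 1, 2 and 8, and in root it had 2.95, 2.24, 2.05, 1.66 and 1.87 RPM in the order of days. The k* strand in leaf had 1.11, 1.15, 0.627, 0.776 and 0.940 RPM, and it was blank in all 5 root libraries. The a* strand was blank in all 5 leaf libraries, and in root it had 0.798, 1.71 and 1.43 RPM on days 0, 2 and 4 and blanks on days 1 and 8.

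The limma log2 difference of leaf minus root was -0.91 for i*, 0.35 for k* and -0.36 for a*, all with blanks entered as 0.5 RPM. The i* and a* strands passed the filter through root, and k* through leaf days 0 and 1, so their tests give no support for an organ difference. The strands d*, f* and l* reached 1 RPM in all 10 libraries. Of the 7 stars, 3 were called higher (d*, f*, k*) and 3 lower (b*, i*, l*) in leaf, where limma called 67.5% of all 151 entries, 33.1% higher and 34.4% lower. At SP the leaf and root libraries of i* overlapped on both days, as given above. Of the phase-change entries at LP, 5 were higher and 7 lower in leaf, with miR156j (limma log2 4.04, adjusted p = 2.69e-07) and miR172a (limma log2 1.66, adjusted p = 0.000735) higher and miR156a lower (limma log2 -0.73, adjusted p = 0.0402).

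No star had a called trend over days of LP. The leaf trend called 0 of 7 stars, where 5.30% of all entries were called, 5 higher and 3 lower. Scaling to listed reads gave 7 higher and 0 lower, and median-ratio scaling gave 6 and 1. The root trend called 0 of 7, where 5.30% of all entries were called, 4 higher and 4 lower, against 4 and 0 with median-ratio scaling. The difference of the trends called 0 of 7 stars and 0% of all entries, of which 9 had an unadjusted p under 0.05, and 0 of the 7 stars did in any of the 3 tests. The slopes per unit of log2(day + 1) were -0.27 (SE 0.19) for l* in leaf, -0.13 (SE 0.12) for d* in leaf, 0.07 (SE 0.21) for b* in root and 0.12 (SE 0.12) for d* in root.

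Against day 0 of the same organ, single LP libraries moved beyond counting error, with no repeat to give a spread between samples. In root, the log2 ratio of b* to day 0 was 1.91 (exact 95% counting interval 1.68 to 2.14) on day 1, 0.84 (0.59 to 1.09) on day 2, 0.86 (0.60 to 1.12) on day 4 and 0.68 (0.41 to 0.95) on day 8, so that day 1 stood at 3.75 times day 0. In root, the linear ratio of l* to day 0 was 0.678 (0.566 to 0.812) on day 1, 0.741 (0.620 to 0.885) on day 2, 0.580 (0.474 to 0.708) on day 4 and 1.19 (1.00 to 1.41) on day 8. These ratios all share the root library of day 0 as denominator.

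In root, the d* ratio to day 0 was 1.47 (exact 95% counting interval 1.20 to 1.80) on day 1, 1.45 (1.19 to 1.78) on day 2, 1.10 (0.879 to 1.37) on day 4 and 1.59 (1.29 to 1.96) on day 8. The i* ratio in root was 0.762 (0.500 to 1.16), 0.696 (0.449 to 1.08), 0.563 (0.342 to 0.911) and 0.636 (0.387 to 1.03) on the same days. The interval of i* lay below 1 on day 4 alone. The a* ratio in root was 2.14 (1.11 to 4.41) on day 2 and 1.79 (0.883 to 3.82) on day 4, from 13 reads on day 0.

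In leaf, the l* ratio to day 0 was 1.32 (exact 95% counting interval 0.901 to 1.93) on day 1, 1.07 (0.736 to 1.58) on day 2, 1.41 (0.971 to 2.06) on day 4 and 0.330 (0.193 to 0.549) on day 8. The day 8 value rests on 23 reads against 52 on day 0, and its log2 of -1.60 was -0.42 with scaling to listed reads. With that scaling the log2 ratios of l* on days 1 and 4 were 1.00 and 1.05, against 0.40 and 0.50 in RPM.

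The direction of the d* change in LP leaf depended on the scaling on each of the 4 later days. In RPM the log2 ratio of d* to day 0 was -0.51, -0.15, -0.39 and -0.55 on days 1, 2, 4 and 8. With scaling to listed reads it was 0.10, 0.05, 0.17 and 0.64, and with median-ratio scaling it was 0.08, 0.16, -0.39 and -0.28. The guide miR156d in LP leaf had 108767 RPM on day 0 and 55238 RPM on day 8, and the guide miR156a had 91598 RPM on day 0 and 31791 RPM on day 8.

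**Figure D4:**
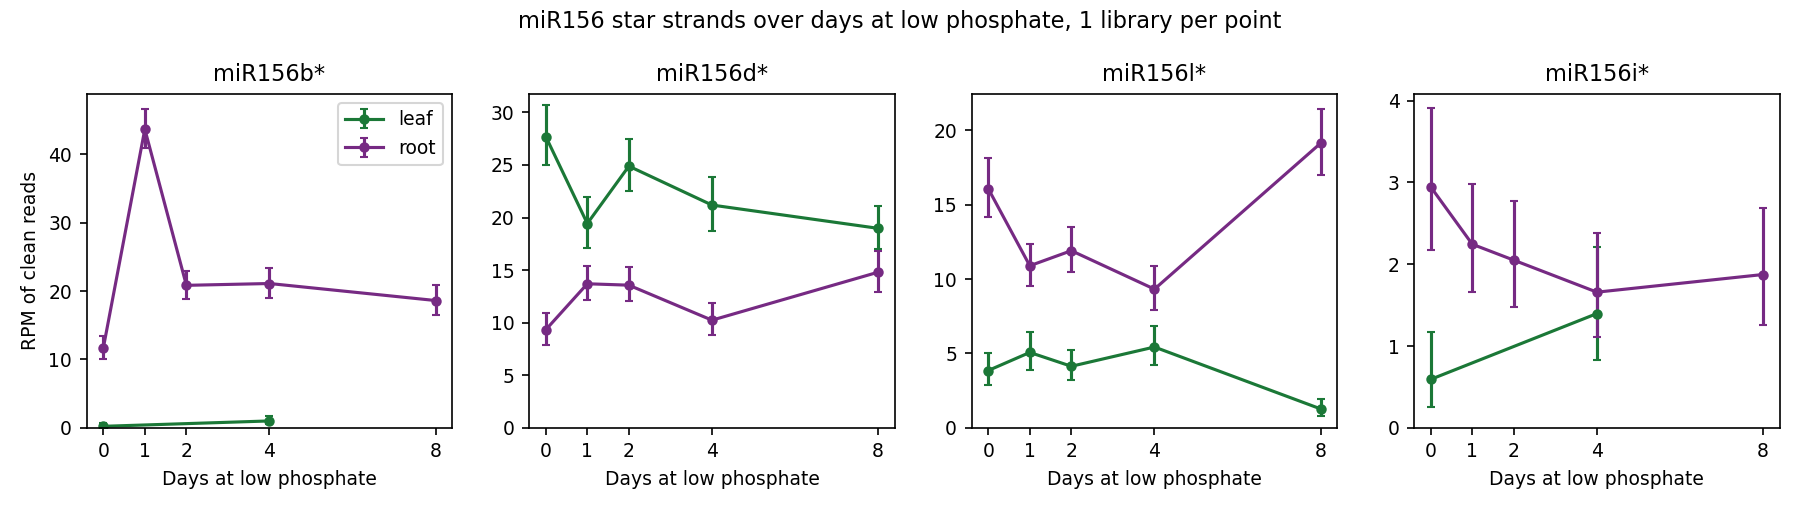
RPM of 4 miR156 star strands over days at LP in leaf (green) and root (purple), 1 library per point, with exact 95% counting intervals and blanks left out. The b* point of root on day 1, at 43.7 RPM, is the highest of its panel, and d* is higher in leaf than in root on all 5 days.

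Ratios between star strands of 1 library need no scaling between libraries. In root, b* over l* was 0.725, 4.01, 1.75, 2.26 and 0.973 at LP on days 0, 1, 2, 4 and 8. At SP it was 4.64 and 5.29 in root on day 8, and 5.48 and 5.82 in root on day 0. All 5 LP root values lay below all 4 SP root values, the LP value of day 0 included, when no LP days had passed. The LP root library of day 0 and the SP root libraries of day 0 all had 1000 µM KH2PO4, so the gap between the deposited tables was present at equal supply. On day 8 the table and the phosphate supply differed together and cannot be told apart.

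In root, l* over d* was 1.72, 0.795, 0.878, 0.911 and 1.29 at LP on days 0, 1, 2, 4 and 8, against 0.742 and 0.602 on SP day 8 and 0.934 and 1.00 on SP day 0. The LP root libraries of days 0 and 8 lay above all SP root libraries. The b* over d* ratio in root was 1.25, 3.19, 1.54, 2.06 and 1.26 at LP, against 3.45 and 3.18 on SP day 8 and 5.12 and 5.82 on SP day 0. The LP root library of day 1 was the LP library whose ratios lay nearest to those at SP.

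**Figure D5:**
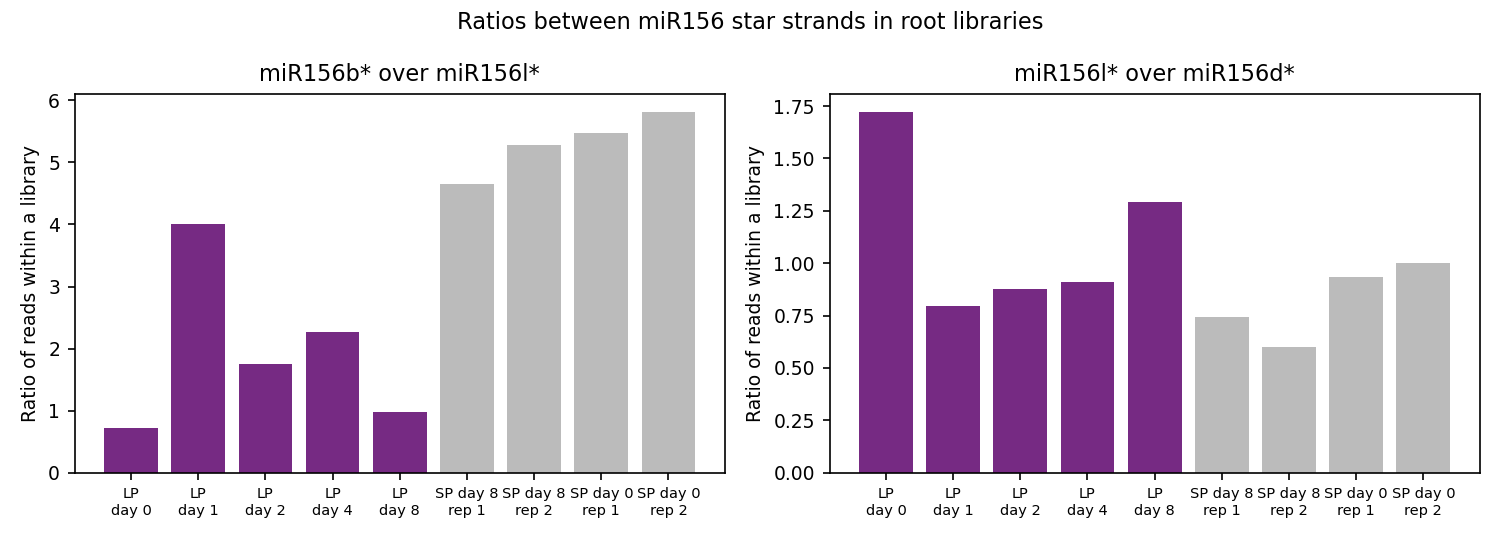
Ratios of star reads within each root library, LP days in purple and SP libraries in grey, for b* over l* (left) and l* over d* (right). The b* over l* ratio is 0.725 at LP on day 0 and 5.48 and 5.82 at SP on day 0.

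In leaf, l* over d* was 0.139, 0.261, 0.166, 0.256 and 0.0671 at LP on days 0, 1, 2, 4 and 8, against 0.190 and 0.101 on SP day 8 and 0.218 and 0.310 on SP day 0. The lowest LP value was that of day 8, and both SP libraries of day 8 lay below both of day 0. All 5 LP and all 4 SP leaf values lay below all root values of the same table.

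The entries with the most similar pattern over the 4 SP group means were found for members with a mean of at least 10 counts, by distance between centred log2 profiles. For b* the nearest was miR167b* at a distance of 0.742, which averaged 0 CPM in leaf in both stages, against 34.5 CPM in root on day 8 and 34.7 CPM in root on day 0, and then miR319b at 1.15. For d* they were miR160d at 0.132 and miR160a at 0.157, and for f* the same pair at 0.152 and 0.173. For l* they were miR169j* at 0.318 and miR390a* at 0.500. For i* they were miR395e at 0.175 and miR395a at 0.178, both under 1 CPM in every group. These are descriptions over 4 group means of the same libraries.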

How the data were processed

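For the 8 SP libraries the authors deposited a whole-number count per miRNA and library. For the 10 LP libraries the authors deposited a signal, namely reads scaled to a total of 1000000 clean reads per library, per the series' design text. Tags of 50 nt from HiSeq runs were cleaned and annotated, per the same text, and the sources used here name no aligner, miRBase release or genome build. The SP columns carry an unexplained suffix, -std. Their values are whole numbers and were read as raw counts, and the edgeR fits and SP counting intervals rest on that reading. Of the root libraries, 2 titled day 8 have another label that says day 0, and the titles were followed. LP depth was recovered from the value steps, with 100% of low values whole within 0.03 reads. A deposited 0.01 was read as 0 reads.

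Entries of a family with identical values were entered once. Counts were fitted with edgeR 4.0.16 in R 4.3.3 (TMM, robust quasi-likelihood, at least 10 counts in 2 libraries, 4 residual degrees of freedom), with SE taken as the absolute log2 change over the square root of F. LP signal was fitted with limma 3.58.1 (trended, robust) on log2(value + 1), with at least 1 RPM in 2 libraries, blanks at 0.5 and slopes on log2(day + 1). P-values were Benjamini-Hochberg adjusted over all entries at a threshold of 0.05. Both fits were tested on simulated data. Alternatives were median-ratio and listed-read scaling, no filter, DESeq2 1.42.0, other pseudocounts, a replicate block, a day block at LP and leaving out each library. Members and lists were chosen with earlier results of these data known. Named were all miR156 stars, their guides, miR156a, miR156j, miR529 and miR172a, and up to 3 further phase-change entries per contrast by lowest p.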

Additional observations from a re-analysis of the deposited data

How the results depend on the processing

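Depth limits a*, e*, h*, j* and k*, and 2 libraries per group limit every SP call. Of 982 test values of single members under alternatives, 891 kept side and direction, and 8 lost and 9 gained a call. Of the same values, 0 called ones reversed and 74 uncalled ones changed sign. The single-library LP folds are not among the 982. Of those, the leaf day 8 folds of d* and f*, beyond counting error in RPM, reversed with scaling to listed reads. Star calls between stages numbered 0 to 2 in leaf and 0 in root when 1 library was left out. For leaf over root they numbered 4 to 5 on day 0 (3 with scaling to listed reads) and 3 to 6 on day 8 (5 with no filter), and for the interaction 0 to 3 (1 with every row kept). At LP they numbered 0 for the trends and 5 to 7 for leaf over root, where k* dropped below the filter without leaf day 0 or 1. Over all entries, leaving out 1 library gave 0 to 18 calls in leaf over the stages, 0 to 19 in root, 0 to 20 for the interaction, and 0 to 18 for each LP trend. Leaf stage calls over all entries were 6 with median-ratio scaling, 6 with no filter and 8 with DESeq2. Root stage calls were 15 with median-ratio scaling, 11 with scaling to listed reads, 7 with no filter, 8 with DESeq2, 10 with limma and 13 with every row kept, against 0 with the reported test. Interaction calls were 4 with median-ratio scaling, 5 with scaling to listed reads, 5 with no filter and 4 with DESeq2. LP leaf trend calls were 13 with a pseudocount of 0.1 and 5 with every row kept, and LP root trend calls were 18 with a pseudocount of 0.1, 0 with one of 10, 4 with every row kept and 4 with median-ratio scaling, an alternative chosen after seeing the data.

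Replicate numbers 1 and 2 recur in every SP group, but nothing in the labels pairs them, and correlations of the replicate differences between groups ran from -0.133 to 0.199. With the replicate number as a block, 2 stars were called in leaf over the stages, 0 in root, 5 and 3 between organs on days 0 and 8, and 0 for the interaction, while interaction calls over all entries numbered 1 in place of 9. The share of b* with entries under 10 counts left out was 0% in leaf on day 8 and 64.1% in root on day 8, and that of d* was 79.1% in leaf on day 8 and 70.4% in leaf on day 0. With every listed row kept, b* had 0.830% in leaf on day 8, 2.11% in leaf on day 0, 46.1% in root on day 8 and 55.8% in root on day 0. Likewise d* had 30.3%, 28.8%, 13.9% and 10.2%, and l* had 4.40%, 7.58%, 9.34% and 9.88%. With f* entered beside d*, chosen after seeing the data, b* had 2.96% in leaf on day 0, 53.4% in root on day 8 and 62.2% in root on day 0. In the same order of 4 groups, d* then had 43.1%, 40.3%, 16.1% and 11.4%, and l* had 6.26%, 10.6%, 10.8% and 11%. These shares fall by construction, since shared reads enter the total repeatedly. For LP leaf on day 8 over day 0, scaling to listed reads gave log2 ratios of 0.64 for d*, 0.60 for f*, 0.94 for k* and -0.42 for l*, against -0.55, -0.58, -0.24 and -1.60, and median-ratio scaling, chosen after seeing the data, gave -0.28 for d* and -0.32 for f*. The cause was not tested. The planned count test on reads recovered from the LP values was not run, since there were too few low values to pass its recovery check. The LP libraries had 73 to 106 low values each, all whole within 0.03 reads. The LP read numbers and counting intervals given above rest on the same recovered depths.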
